A study of Rattus norvegicus with 14 samples.

Results

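The transcription factors of steroidogenic cells were taken as 7 genes by name, Nr5a1, Nr5a2, Nr0b1, Gata4, Gata6, Zfpm2 and Cebpb. All 7 were among the 18174 genes of the deposited count table, and all 7 were among the 12719 genes with enough counts to be tested. The list was set by gene name and used no measured value.

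The samples were fetal testes of Harlan Sprague Dawley rats whose dams received the plasticizer dicyclohexyl phthalate (DCHP), a phthalate diester, dissolved in corn oil by daily oral gavage over gestational days 14 to 18. The organs were collected on gestational day 18 and combined within each litter, so every library is 1 litter, made of whole organs with all of their cell types. The vehicle litters, whose dams received corn oil alone, numbered 3, and there were 3 litters at each of 100, 300 and 600 mg/kg/day and 2 litters at 900 mg/kg/day. Expression was measured by TempO-Seq, in which a pair of probes is ligated on its target RNA and the ligated pair is sequenced.

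Steroidogenic cells of the fetal testis are the Leydig cells of the interstitium, which make testosterone and insulin-like peptide under the control of a small set of DNA-binding proteins. Nr5a1, also called steroidogenic factor, is a nuclear receptor that binds an extended AGGTCA motif in the promoters of most steroidogenic genes, and it is also active in Sertoli cells. GATA factors, their cofactor Zfpm2, the bZIP factor Cebpb and the repressor Nr0b1 act on many of the same promoters.

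Libraries held 5558873 to 11272861 estimated counts. On the first principal component of the tested genes, vehicle litter 1 lay at -37.7 and 100 mg/kg/day litter 1 at -56.7, with the 900 mg/kg/day litters at -33.4 and -19.8, while the other 10 libraries lay between -1.51 and 29.3. Changes of the factors that pass or stop passing the test without vehicle litter 1 and 100 mg/kg/day litter 1 are given both ways. So are changes against vehicle and over dose that turn their sign, and some that only move. The 900 mg/kg/day litters lay on the same side of that axis as the pair left out. Without the pair 39, 66 and 2102 genes passed at 300, 600 and 900 mg/kg/day (0.309%, 0.523% and 16.7% of those tested), 1769 between 900 and 600 mg/kg/day (14.0%) and 1494 over dose (11.8%). With all 14 libraries 6, 28, 32, 0 and 54 genes passed. Levels are in CPM, on library totals scaled by the TMM method. Fold changes are on the log2 scale with their standard error, tested by the quasi-likelihood method of edgeR. A gene passed where its Benjamini-Hochberg adjusted p over all tested genes was under 0.05. Each gene is read by its own probes, so levels are compared between litters and not between genes.

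Of the 7 factors, Cebpb fell and the other 6 did not pass the test at any dose or over dose with all 14 libraries. Cebpb was lower by 61.1% in the 900 mg/kg/day litters than in vehicle litters. For Nr5a1 all litters at 300 and 600 mg/kg/day lay below the vehicle litters, and the difference did not pass the test. In the same litters 8 of the 14 tested target genes of these factors, among them Star, Cyp11a1 and Cyp17a1, fell with dose. The targets were chosen with their falls in these data known, so that count is no independent result. The calls of 2 of them, Hsd3b1 and Insl3, were lost in 13 and 11 of the 14 fits that leave out 1 litter. At 900 mg/kg/day the 1 factor that fell compares with 0.204% of tested genes that fell. No factor rose there, against 0.0472% of tested genes. At 100, 300 and 600 mg/kg/day 0 of 7 factors passed the test, against 0.0%, 0.0472% and 0.22% of all tested genes, and over dose 0 of 7 passed, against 0.425%. At an unadjusted p under 0.05 edgeR counted 2, 2, 2 and 1 factors at 100, 300, 600 and 900 mg/kg/day, against 3.4%, 3.65%, 4.79% and 4.99% of tested genes. Over dose it counted 2 factors, against 5.09%. DESeq2 after adjustment called 0, 0, 1 and 1 factors at these doses, and 1 in the trend. At 100, 300 and 600 mg/kg/day DESeq2 called 2, 27 and 59 genes in all, against 0, 6 and 28 with edgeR. Over the alternatives other than single left-out litters, DESeq2 among them, 4 to 2102 genes passed at 900 mg/kg/day and 49 to 1494 over dose. The main fit had 32 and 54. Between neighbouring doses 0 factors passed, against 0.0% of tested genes, and 0 passed with DESeq2. At an unadjusted p under 0.05 these steps counted 1, 0 and 2 factors, against 2.45%, 1.27% and 8.32% of tested genes. All 4 dose comparisons share the same 3 vehicle litters.

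**Figure D1:**
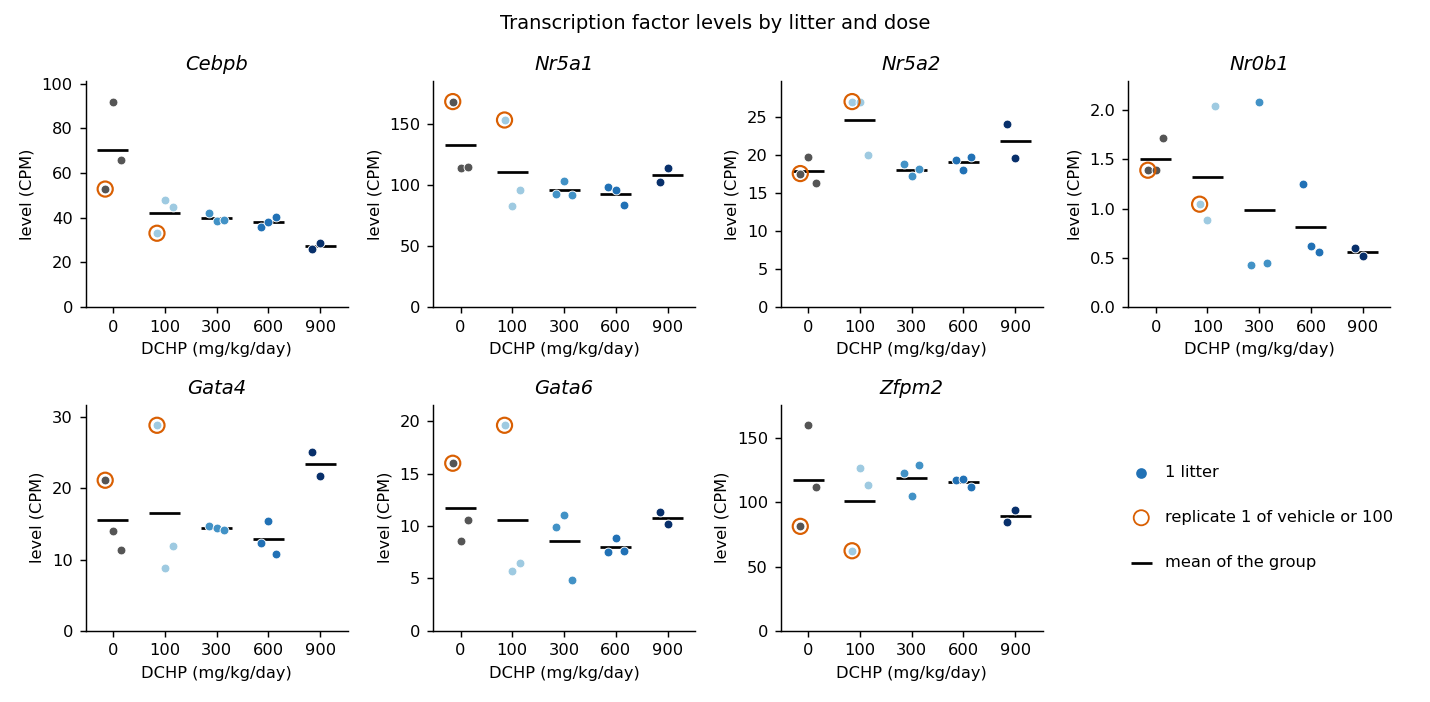
Level of each of the 7 factors in every litter (CPM, vertical axis from 0) by dose of DCHP (mg/kg/day, with vehicle at 0 and doses evenly spaced). Points are litters, bars are group means, and open circles mark litter 1 of vehicle and of 100 mg/kg/day. The 11 treated litters of Cebpb lie between 25.8 and 48.1 CPM, all below the vehicle litters, while for the other factors treated and vehicle litters overlap.

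The promoters of 3 of the factors and of 2 of their target genes are shown because they hold the letters that these proteins are known to bind, or letters that cAMP-regulated factors bind. RefSeq promoters on build GRCr8 were found for 5 of the 7 factors (not Gata4 or Zfpm2) and for 12 of 16 target genes. Each sequence below is the 250 bases before the gene's start, 5′ to 3′ on the strand of the gene, and capitals mark the matches described after it. The intervals are chr3:42896047-42896296 on the minus strand for Nr5a1, chrX:54707408-54707657 on the plus strand for Nr0b1, chr3:176816755-176817004 on the plus strand for Cebpb, chr8:67318415-67318664 on the plus strand for Cyp11a1 and chr9:84442859-84443108 on the plus strand for Inha.
Nr5a1: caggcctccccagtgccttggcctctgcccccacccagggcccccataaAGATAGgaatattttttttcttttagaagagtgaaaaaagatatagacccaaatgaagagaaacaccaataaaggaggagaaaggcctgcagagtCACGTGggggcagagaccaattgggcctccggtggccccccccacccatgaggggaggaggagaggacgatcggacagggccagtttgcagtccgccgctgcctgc
Nr0b1: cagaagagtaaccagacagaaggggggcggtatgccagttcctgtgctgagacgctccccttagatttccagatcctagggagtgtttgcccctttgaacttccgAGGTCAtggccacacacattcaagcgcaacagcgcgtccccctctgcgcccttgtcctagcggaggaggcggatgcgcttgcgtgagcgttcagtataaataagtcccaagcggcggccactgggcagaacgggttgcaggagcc
Cebpb: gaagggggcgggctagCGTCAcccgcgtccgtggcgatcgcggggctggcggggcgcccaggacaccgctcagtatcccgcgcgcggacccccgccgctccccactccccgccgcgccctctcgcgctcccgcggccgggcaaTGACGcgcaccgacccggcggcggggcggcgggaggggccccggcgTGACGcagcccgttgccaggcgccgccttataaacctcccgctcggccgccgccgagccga
Cyp11a1: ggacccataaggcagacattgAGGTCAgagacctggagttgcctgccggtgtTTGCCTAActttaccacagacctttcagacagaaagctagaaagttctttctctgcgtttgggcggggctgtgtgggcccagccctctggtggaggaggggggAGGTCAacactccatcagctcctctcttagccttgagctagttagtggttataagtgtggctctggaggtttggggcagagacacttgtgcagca
Inha: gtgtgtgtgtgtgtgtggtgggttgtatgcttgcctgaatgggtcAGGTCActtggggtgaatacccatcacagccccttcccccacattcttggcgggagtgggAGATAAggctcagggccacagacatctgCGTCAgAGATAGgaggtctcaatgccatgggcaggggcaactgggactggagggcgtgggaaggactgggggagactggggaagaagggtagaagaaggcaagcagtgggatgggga

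Both strands were searched, and a position is that of the first matched base counted from the start. The Nr5a1 promoter held the GATA sequence AGATAG at -201 and the E-box CACGTG at -106. The Nr0b1 promoter held the nuclear receptor motif AGGTCA at -145. The Cebpb promoter held TGACG, the core motif of cAMP response element binding proteins, at -107 and -61, and on the other strand at -234. The promoter of Cyp11a1, which encodes the cholesterol side-chain cleavage enzyme, held AGGTCA at -229 and -95 and the C/EBP sequence TTGCNNAA at -198. The promoter of Inha, which encodes the inhibin alpha subunit, held AGGTCA at -205, AGATAA at -145, AGATAG at -111 and TGACG on the other strand at -117. Of 33469 RefSeq promoters of the same length, 14.1% held AGGTCA, 18.2% TGACG, 5.59% CACGTG, 9.2% TTGCNNAA and 27.0% any of 4 GATA sequences, which are AGATAA with AGATAG, and TGATAA with TGATAG. The longer NR5A sequences, AAGGTCA as well as AAGGCCA, occurred in 3.99% and 5.29% of promoters. They were found in 3 of the 17 promoters searched, those of Gata6, Fdx1 and Amh, and in none of the 5 shown, which were picked for their other matches. AGGTCA was found in 9 of the 17, GATA sequences in 5, and TTGCNNAA and TGACG in 2 each. The nuclear receptor motif, TGACG and the E-box were chosen after the sequences had been read. A match is a match of letters and was not tested as a binding site.

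Nr5a1 lies on chromosome 3 (chr3:22465502-22486329, minus strand, rn7) and averaged 926.2 counts per library. Its level was 168.5, 114.1 and 114.9 CPM in the vehicle litters, 153.4, 82.9 and 96.1 CPM at 100 mg/kg/day, 92.4, 103.0 and 92.3 CPM at 300 mg/kg/day, 98.1, 95.6 and 83.8 CPM at 600 mg/kg/day, and 102.8 and 114.2 CPM at 900 mg/kg/day. The treated litters lay below all vehicle litters at 300 and 600 mg/kg/day, as 4.47% and 5.91% of tested genes did, and overlapped them at 100 and 900 mg/kg/day. The group means were 132.5 ± 31.2, 110.8 ± 37.5, 95.9 ± 6.16 and 92.5 ± 7.67 CPM from vehicle to 600 mg/kg/day (SD, n = 3 each) and 108.5 ± 8.10 CPM at 900 mg/kg/day (SD, n = 2). The log2 fold change was -0.52 ± 0.21 at 600 mg/kg/day and -0.29 ± 0.23 at 900 mg/kg/day, with edgeR adjusted p of 0.951 and 0.852. At 900 mg/kg/day its 95% interval, -0.79 to 0.22, holds both a fall and a rise. The intervals at 300 and 600 mg/kg/day, -0.92 to -0.016 and -0.97 to -0.066, lay below 0. Their unadjusted edgeR p was 0.0432 and 0.0276, and neither passed after adjustment. The highest litters were vehicle litter 1 and 100 mg/kg/day litter 1, the libraries that stood apart. Without them the changes at 300, 600 and 900 mg/kg/day were smaller, at -0.26 ± 0.11, -0.30 ± 0.11 and -0.11 ± 0.12. That at 100 mg/kg/day was larger, at -0.35 ± 0.12 against -0.26 ± 0.21 with all libraries. None of these changes passed the test. The slope was -0.034 ± 0.023 log2 per 100 mg/kg/day with all libraries and -0.0028 ± 0.014 without that pair. With all libraries the change at 300 mg/kg/day was -0.47 ± 0.21.

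Nr5a2, the closest relative of Nr5a1, binds the same DNA sequence and is known for bile acid and ovarian steroid synthesis. It lies at chr13:48316301-48433327 on the minus strand and averaged 169.6 counts. Its level was 17.6, 19.7 and 16.4 CPM in vehicle litters, 27.0, 26.9 and 20.0 CPM at 100 mg/kg/day, 18.8, 17.2 and 18.2 CPM at 300 mg/kg/day, 19.4, 18.0 and 19.8 CPM at 600 mg/kg/day, and 24.1 and 19.6 CPM at 900 mg/kg/day. All 3 litters at 100 mg/kg/day lay above the vehicle litters, as 3.0% of tested genes did, and at the 3 higher doses the litters overlapped those of vehicle. The log2 fold change at 100 mg/kg/day was 0.46 ± 0.16 and did not pass the test (edgeR adjusted p = 0.9999). Liver markers, 4 of 5 in the table, were also higher at that dose: they summed to 10.1, 10.3 and 16.2 CPM in the 100 mg/kg/day litters and 7.35, 1.89 and 3.20 CPM in vehicle litters. Within that dose the order differed, litter 3 having the highest marker sum and the lowest Nr5a2. The part of liver markers in the level of Nr5a2, which liver expresses, was not tested. At 900 mg/kg/day the log2 fold change of Nr5a2 was 0.29 ± 0.17 (edgeR adjusted p = 0.852), and the slope over dose was 0.0022 ± 0.021 log2 per 100 mg/kg/day. The highest litters were thus at the lowest dose.

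Nr0b1, also called DAX1, is an X-linked nuclear receptor that lacks a DNA-binding domain and represses Nr5a1. It lies at chrX:50756886-50761012 on the plus strand and was counted only 3 to 20 times per library, so single litters are imprecise. Its level was 1.39, 1.39 and 1.71 CPM in vehicle litters, 1.05, 0.889 and 2.04 CPM at 100 mg/kg/day, 0.430, 2.09 and 0.450 CPM at 300 mg/kg/day, 1.25, 0.622 and 0.555 CPM at 600 mg/kg/day, and 0.602 and 0.515 CPM at 900 mg/kg/day. The litters at 600 and 900 mg/kg/day all lay below the vehicle litters, as 5.91% and 8.84% of tested genes did. Summed over litters, the 11 counts at 900 mg/kg/day gave 0.552 CPM, with an exact Poisson 95% interval of 0.275 to 0.987, and the 43 counts of the vehicle litters gave 1.49 CPM, with an interval of 1.08 to 2.01. These intervals cover counting error only. Between litters the difference did not pass the test, with a log2 fold change of -1.41 ± 0.70 at 900 mg/kg/day (edgeR adjusted p = 0.852). The slope was -0.15 ± 0.059 log2 per 100 mg/kg/day, with an adjusted p of 0.783.

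Gata4 and Gata6 encode zinc finger proteins that bind GATA sequences. In mice Gata4 and its cofactor are needed for testis determination, and both GATA genes are active in Leydig and Sertoli cells. Gata4 lies at chr15:37459601-37505637 on the minus strand and averaged 137.6 counts. Its level was 21.1, 14.0 and 11.3 CPM in vehicle litters, 28.9, 8.89 and 11.9 CPM at 100 mg/kg/day, 14.7, 14.5 and 14.1 CPM at 300 mg/kg/day, 12.4, 15.4 and 10.7 CPM at 600 mg/kg/day, and 25.1 and 21.7 CPM at 900 mg/kg/day. Both litters at 900 mg/kg/day lay above the vehicle litters, as 10.3% of tested genes did, and the highest litter of all was 100 mg/kg/day litter 1. Gata4 averaged 23.4 ± 2.35 CPM at 900 mg/kg/day (SD, n = 2) and 15.5 ± 5.08 CPM in vehicle litters (SD, n = 3). The log2 fold change was 0.59 ± 0.39 (edgeR adjusted p = 0.852). Without the pair of libraries that stood apart it was 0.85 ± 0.20 (adjusted p = 0.0122), and the slope was 0.090 ± 0.023 log2 per 100 mg/kg/day (adjusted p = 0.0265), against 0.037 ± 0.037 with all libraries. The vehicle litter left out had the highest Gata4 of its group, so its removal widens the difference by construction. In that fit 16.7% of tested genes passed at 900 mg/kg/day and 11.8% over dose. The step between 900 and 600 mg/kg/day was 0.86 ± 0.39 with all libraries (edgeR adjusted p = 0.508). Without the pair it was 0.83 ± 0.19 (edgeR adjusted p = 0.0102), where 14.0% of tested genes passed.

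Gata6 lies at chr18:2188121-2219533 on the plus strand and averaged 84.4 counts. Its level was 16.0, 8.56 and 10.5 CPM in vehicle litters, 19.6, 5.71 and 6.43 CPM at 100 mg/kg/day, 9.89, 11.1 and 4.80 CPM at 300 mg/kg/day, 7.502, 8.86 and 7.58 CPM at 600 mg/kg/day, and a mean of 10.8 ± 0.781 CPM at 900 mg/kg/day (SD, n = 2), where the higher litter had 11.3 CPM. Litters of every dose overlapped those of vehicle, and the libraries that stood apart held its highest values. The log2 fold change was -0.55 ± 0.44 at 600 mg/kg/day and -0.12 ± 0.47 at 900 mg/kg/day, and neither passed the test. Without those libraries they were -0.25 and 0.145, so that the sign at 900 mg/kg/day turned. At 300 mg/kg/day the change was -0.44 ± 0.43 with all libraries and -0.14 ± 0.26 without them.

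Zfpm2, also called FOG2, binds GATA proteins and modifies their activity. It lies at chr7:71678880-72116206 on the plus strand and averaged 925.9 counts. Its level was 81.3, 160.0 and 111.8 CPM in vehicle litters, 62.3, 126.9 and 113.7 CPM at 100 mg/kg/day, 122.9, 105.3 and 128.9 CPM at 300 mg/kg/day, 117.5, 118.2 and 111.7 CPM at 600 mg/kg/day, and 85.0 and 94.2 CPM at 900 mg/kg/day. All dose groups overlapped the vehicle litters, and the libraries that stood apart had the lowest values. Zfpm2 averaged 89.6 ± 6.48 CPM at 900 mg/kg/day (SD, n = 2) and 117.7 ± 39.6 CPM in vehicle litters (SD, n = 3). The log2 fold change was -0.39 ± 0.28 (edgeR adjusted p = 0.852). Without those libraries it was -0.63 ± 0.15 (adjusted p = 0.0114) and the slope was -0.055 ± 0.015 log2 per 100 mg/kg/day (adjusted p = 0.0319). With all libraries the slope was -0.021 ± 0.027. The vehicle litter left out had the lowest Zfpm2 of its group, which widens the difference by construction as for Gata4. In that fit 16.7% of tested genes passed at 900 mg/kg/day and 11.8% over dose.

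Cebpb encodes a bZIP transcription factor that is induced by cAMP in Leydig cells and acts on the Star promoter, and it is also active in macrophages, liver and fat. It lies at chr3:156397052-156399474 on the plus strand and averaged 383.2 counts. Its level was 52.8, 92.0 and 65.8 CPM in vehicle litters, 33.1, 48.1 and 44.8 CPM at 100 mg/kg/day, 42.0, 38.3 and 38.9 CPM at 300 mg/kg/day, 36.01, 37.94 and 40.5 CPM at 600 mg/kg/day, and 25.8 and 28.8 CPM at 900 mg/kg/day. Every one of the 11 treated litters lay below every vehicle litter, which 0.511% of tested genes did, and the litters at 900 mg/kg/day were the lowest of all. Vehicle litter 1 and 100 mg/kg/day litter 1 were the lowest of their groups. The means were 70.2 ± 19.9, 42.0 ± 7.91, 39.7 ± 2.00 and 38.1 ± 2.25 CPM from vehicle to 600 mg/kg/day (SD, n = 3 each) and 27.3 ± 2.11 CPM at 900 mg/kg/day (SD, n = 2). The middle 3 doses thus had nearly the same mean, within the SD of the 100 mg/kg/day litters.

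The log2 fold change of Cebpb against vehicle was -0.74 ± 0.19 at 100 mg/kg/day, -0.82 ± 0.19 at 300 mg/kg/day and -0.88 ± 0.19 at 600 mg/kg/day, with edgeR adjusted p of 0.9999, 0.402 and 0.168. At 900 mg/kg/day Cebpb fell by 1.36 on the log2 scale (SE 0.22, 95% interval -1.84 to -0.88, adjusted p = 0.0211). Its slope over dose was -0.12 ± 0.026 log2 per 100 mg/kg/day and did not pass (adjusted p = 0.0604), and neither did the step between 900 and 600 mg/kg/day, at -0.48 ± 0.22 (adjusted p = 0.508). With DESeq2 the fall passed at 600 mg/kg/day (adjusted p = 0.0199) and 900 mg/kg/day (adjusted p = 9.09e-06), and so did the slope (adjusted p = 0.00348). The call at 900 mg/kg/day was lost without vehicle litter 3 (adjusted p = 0.0707), without either litter of 900 mg/kg/day (0.487 and 0.247), and in a fit of the vehicle and 900 mg/kg/day litters alone (0.334). Without vehicle litter 1 and 100 mg/kg/day litter 1 Cebpb fell at 300, 600 and 900 mg/kg/day, by 0.99, 1.05 and 1.56 on the log2 scale (edgeR adjusted p = 0.00533, 0.00126 and 0.000126). In that fit the slope, -0.14 ± 0.022 log2 per 100 mg/kg/day, and the step between 900 and 600 mg/kg/day, -0.51 ± 0.15, passed too (edgeR adjusted p = 0.00229 and 0.0300). The vehicle litter left out had the lowest Cebpb of its group, which widens the differences from vehicle by construction as for Gata4. Of all tested genes 0.309%, 0.523% and 16.7% passed in that fit at 300, 600 and 900 mg/kg/day. Over dose 11.8% passed, and 14.0% between 900 and 600 mg/kg/day.

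In a whole organ, fewer cells that express a gene and less of its RNA per cell cannot be told apart. The 8 of 8 macrophage markers found in the table summed to 39.7 to 41.2 CPM at 900 mg/kg/day and 38.2 to 41.8 CPM in vehicle litters, and to 33.1 to 47.7 CPM over all treated litters. The liver markers summed to 3.78 to 5.54 CPM at 900 mg/kg/day and 1.35 to 16.2 CPM over all treated litters, and to 1.89 to 7.35 CPM in vehicle litters. The 6 of 6 Leydig cell markers summed to 979 to 1220 CPM at 900 mg/kg/day and 3543 to 7691 CPM in vehicle litters, but all 6 are also in the list of targets, so none is independent of it. Most of that sum was Insl3, at 774.8 to 915.0 CPM at 900 mg/kg/day and 2275 to 5869 CPM in vehicle litters. The change of Insl3 at 900 mg/kg/day did not pass the test (edgeR adjusted p = 0.108). Sertoli cell markers, 5 of 6 in the table, summed to 520.9 to 593.8 CPM at 900 mg/kg/day and 474.0 to 608.1 CPM in vehicle litters. The sums at 900 mg/kg/day and in vehicle litters were 592.2 to 628.5 and 460.6 to 583.5 CPM for 5 of 6 germ cell markers, 313.1 to 429.1 and 281.5 to 316.6 CPM for 6 of 6 peritubular markers, 410.9 to 417.9 and 356.9 to 422.1 CPM for 6 of 6 endothelial markers, and 8452 to 12340 and 7885 to 28570 CPM for 4 of 8 erythroid markers. Of 5 adrenal markers Mc2r alone was in the table, at 0.515 to 1.08 CPM at 900 mg/kg/day and 0.199 to 0.572 CPM in vehicle litters. No marker in the table had a mean count under 1. The germ cell and erythroid sums were mostly 1 gene each, Ddx4 with a mean of 4732 counts and Hbb-bs with 132700. The other markers of those lists averaged at most 138.9 and 571.6 counts. The part of the Leydig cell markers in the fall of Cebpb was not tested.

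**Figure D2:**
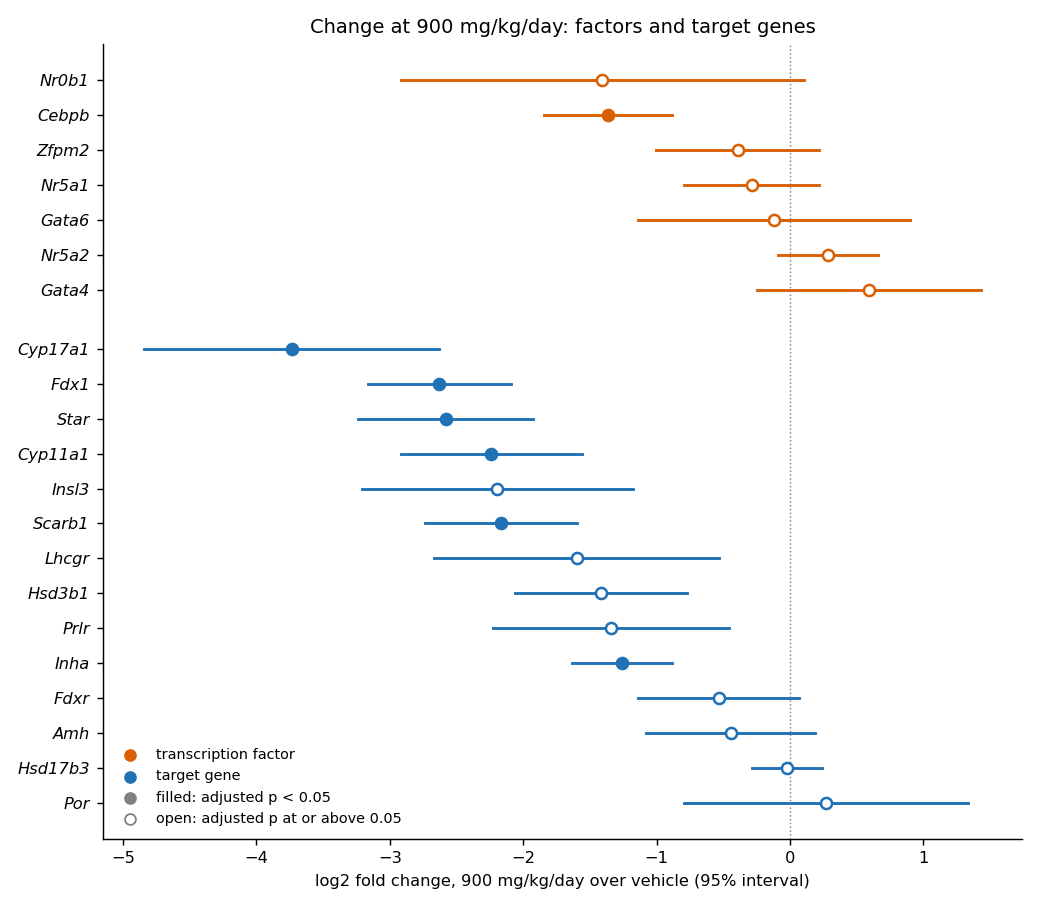
Log2 fold change of the 7 factors (orange) and 14 target genes (blue) at 900 mg/kg/day against vehicle (horizontal axis), with 95% intervals from edgeR, and filled points where the adjusted p was under 0.05. The interval of Cebpb, -1.84 to -0.88, lies wholly below 0, and those of the other 6 factors hold 0.

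Of the 16 target genes listed for these factors all were in the table and 14 were tested, Cyp19a1 and Mc2r having too few counts. At 100, 300, 600 and 900 mg/kg/day 0, 3, 5 and 6 of them fell, and 8 fell over dose, where none rose. The 6 that fell at 900 mg/kg/day were Star, which imports cholesterol into mitochondria, Cyp11a1, Cyp17a1, which makes androgen precursors, the lipoprotein receptor Scarb1, the electron carrier Fdx1, and Inha. Their log2 fold changes ran between -3.73 ± 0.51 for Cyp17a1 and -1.26 ± 0.17 for Inha, each with an edgeR adjusted p of 0.00805 or less. Hsd3b1, a hydroxysteroid dehydrogenase, and Insl3, the insulin-like peptide, passed over dose by a small margin (adjusted p = 0.0433 and 0.0466). Their calls were lost in 13 and 11 of the 14 fits that leave out 1 litter, with adjusted p up to 0.230 and 0.237. Both were lost with no filter on low counts (0.0719 and 0.101), and that of Insl3 with RLE scaling (0.0535). The median log2 fold change at 900 mg/kg/day was -0.29 for the 7 factors, -1.51 for the 14 targets and 0.024 for all tested genes. At 100, 300 and 600 mg/kg/day it was -0.15, -0.44 and -0.52 for the factors and 0.010, -0.015 and -0.022 for all tested genes. At 300 mg/kg/day 0 targets passed without vehicle litter 1 or 3, without any 1 litter of 300 mg/kg/day, or without litter 1 or 2 of 600 mg/kg/day, and 1 passed without vehicle litter 2. At 600 mg/kg/day 3 to 8 passed when 1 litter was left out, with 3 in 8 of those fits and also with RLE scaling and in a fit of the compared groups alone, and 8 without 100 mg/kg/day litter 1 and with DESeq2. At 900 mg/kg/day 0 and 2 targets passed without the first or the second litter of that dose, 3 in a fit of the vehicle and 900 mg/kg/day litters alone, and 11 without vehicle litter 1 and 100 mg/kg/day litter 1. The targets were chosen with their falls in these data known.

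The level of a target divided by that of Nr5a1 in the same litter does not depend on how libraries are scaled, although its size depends on the probes. The ratio of Star to Nr5a1 was 2.04, 1.83 and 2.47 in vehicle litters, 1.11, 1.39 and 0.945 at 100 mg/kg/day, 0.872, 0.808 and 0.702 at 300 mg/kg/day, 0.558, 0.580 and 0.404 at 600 mg/kg/day, and 0.443 and 0.416 at 900 mg/kg/day. Every treated litter lay below every vehicle litter. The slope of its log2 ratio was -0.24 ± 0.031 per 100 mg/kg/day (permutation p = 1e-05, the smallest the 100000 resamples can give, 2.5e-05 adjusted over 5 ratios).

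The ratio of Cyp17a1 to Nr5a1 was 1.32, 4.58 and 2.61 in vehicle litters and 0.201 and 0.276 at 900 mg/kg/day. The ratio of Inha to Nr5a1 was 1.02, 1.98 and 1.68 in vehicle litters and 0.780 and 0.735 at 900 mg/kg/day. In both the 900 mg/kg/day litters were below all vehicle litters, and vehicle litter 1 was the lowest of its group. The slopes were -0.33 ± 0.062 for Cyp17a1, -0.21 ± 0.029 for Scarb1, -0.20 ± 0.043 for Cyp11a1 and -0.086 ± 0.031 for Inha, with adjusted permutation p of 0.000317, 2.5e-05, 0.000712 and 0.0174. These 5 targets were chosen with their falls known, so the direction of the slopes is no independent result. Of the tested targets that were not set against Nr5a1, Hsd17b3, Amh and Por, named after their values were seen, had slopes of their own level of -0.0016 ± 0.010, -0.013 ± 0.030 and 0.018 ± 0.050 log2 per 100 mg/kg/day, none of which passed. Prlr, Lhcgr and Fdxr did not pass either, with slopes of -0.15 ± 0.039, -0.15 ± 0.046 and -0.070 ± 0.030 (edgeR adjusted p = 0.144, 0.411 and 0.871). The slope for Inha no longer passed without either litter of 900 mg/kg/day, with adjusted p of 0.0545 and 0.0650.

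**Figure D3:**
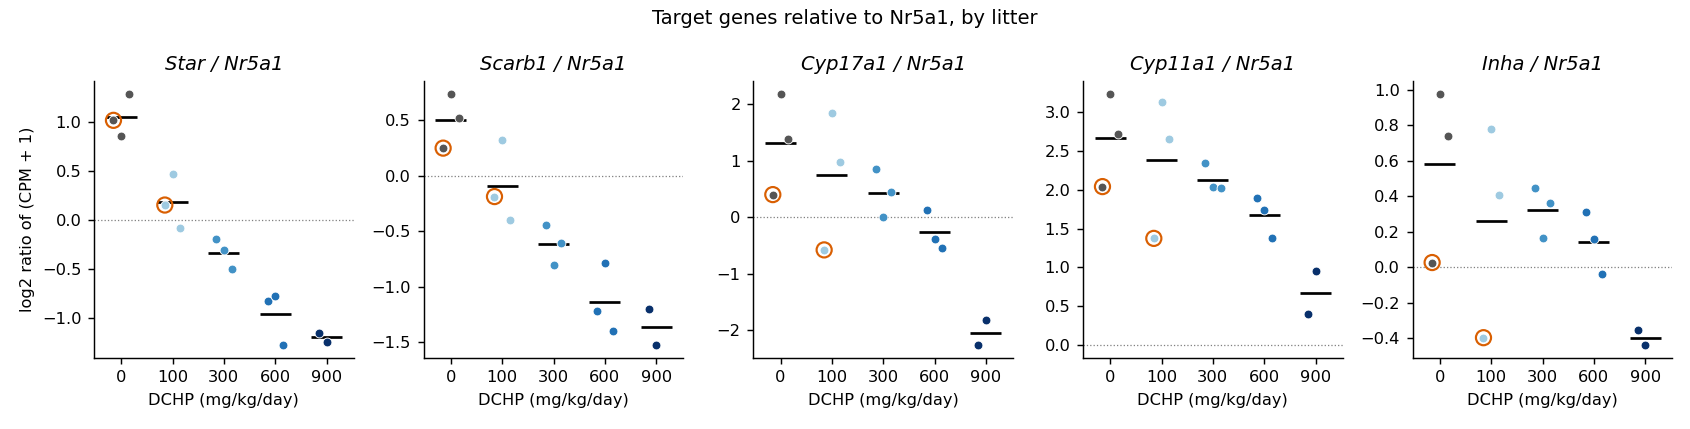
Log2 ratio of the level of each of 5 target genes to that of Nr5a1 (vertical axis) in every litter, by dose of DCHP (mg/kg/day, evenly spaced). Points are litters, bars are group means, and rings mark litter 1 of vehicle and of 100 mg/kg/day. The slopes run between -0.33 for Cyp17a1 and -0.086 for Inha per 100 mg/kg/day, all downward.

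Close relatives of the factors did not pass the test in any comparison. Of 9 relatives 7 were in the table and 6 were tested. The nearest to the threshold over dose were Zfpm1, the cofactor of GATA proteins in blood cells, and Cebpd, the partner of Cebpb in the C/EBP family. Zfpm1 averaged 0.430 ± 0.244 CPM at 900 mg/kg/day (SD, n = 2) and 1.41 ± 0.135 CPM in vehicle litters (SD, n = 3), at a mean count of 7.14 per library. Cebpd averaged 33.8 ± 5.82 CPM at 900 mg/kg/day (SD, n = 2) and 47.2 ± 7.51 CPM in vehicle litters (SD, n = 3), with a log2 fold change of -0.48 ± 0.19 (edgeR adjusted p = 0.852). Gata3 and Nr0b2, a repressor of Nr5a2, had log2 fold changes of 0.39 ± 0.20 and -0.062 ± 0.25 at 900 mg/kg/day.

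None of the 21 tested genes among 27 other transcription factors of testis cells passed, and none of the 13 tested among 14 coregulators. Sox9, a transcription factor of Sertoli cells, had the smallest p over dose among the other factors, with a slope of 0.033 ± 0.011 log2 per 100 mg/kg/day (edgeR adjusted p = 0.452). It averaged 375.5 ± 61.3 CPM at 900 mg/kg/day (SD, n = 2) and 307.0 ± 22.9 CPM in vehicle litters (SD, n = 3). Tcf21, a factor of interstitial progenitors, and Cbx2, a Polycomb protein, had log2 fold changes of 0.20 ± 0.13 and 0.23 ± 0.11 at 900 mg/kg/day. The acetyltransferase Ep300, the corepressor Ncor1 and the kinase Hipk3 had 0.43 ± 0.32, 0.068 ± 0.14 and 0.28 ± 0.19. The coactivator Ppargc1a was near the limit of detection, at 0.241 to 0.344 CPM at 900 mg/kg/day and 0 to 0.199 CPM in vehicle litters.

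The factors also varied between litters of the same dose, and several did so together. Over 14 litters 21 pairs of factors were correlated on log2(CPM + 1), and 6 pairs passed with permutation p adjusted over the 21. Nr5a1 and Gata6 had r = 0.83 and Spearman's rho = 0.78 (adjusted permutation p = 0.00609 and 0.0128). Gata4 and Gata6 had r = 0.76 and rho = 0.71 (0.00835 and 0.0384). Gata6 and Zfpm2 ran opposite, with r = -0.79 and rho = -0.80 (0.00651 and 0.0128). Gata4 and Zfpm2 had r = -0.78, Nr5a1 and Gata4 r = 0.70, and Nr5a1 and Zfpm2 r = -0.67, with adjusted permutation p of 0.00651, 0.0236 and 0.0391, while their rho of -0.56, 0.54 and -0.62 did not pass. Cebpb was in none of the 6 pairs.

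These relations weakened when litters were left out. Without the 2 litters farthest from the median of the first gene, r was 0.61 for Nr5a1 and Gata6, 0.64 for Gata4 and Gata6, -0.65 for Gata6 and Zfpm2, -0.55 for Gata4 and Zfpm2, 0.50 for Nr5a1 and Gata4 and -0.14 for Nr5a1 and Zfpm2. For the pairs with Nr5a1 those were vehicle litter 1 and 100 mg/kg/day litter 1, so for these pairs the next check is the same one. Without vehicle litter 1 and 100 mg/kg/day litter 1, 0 of 21 pairs passed. Their r was then 0.61 for Nr5a1 and Gata6, 0.57 for Gata4 and Gata6, -0.50 for Gata6 and Zfpm2, -0.58 for Gata4 and Zfpm2, 0.50 for Nr5a1 and Gata4 and -0.14 for Nr5a1 and Zfpm2. With 12 litters left 5 of the 6 kept an r of at least 0.50 in size. Fewer litters also make a call harder, and no other 2 litters were left out of all pairs for comparison. With 1 litter left out at a time, Nr5a1 and Gata6 passed all 14 times, and each other pair lost its call 1 to 10 times. Within dose groups, on deviations from the group means, r was 0.84 for Nr5a1 and Gata6 and -0.87 for Gata6 and Zfpm2, and 10 pairs passed with those litters included. The permutations on deviations ran across groups, although deviations sum to 0 within each group. Their p is thus too small, and the 10 may be too many. Cebpb and Zfpm2 had r = 0.93 on the deviations and 0.56 over all litters (adjusted permutation p = 0.127), and 0.80 without those 2 litters (0.0672). With Nr5a1, Gata4 and Gata6 Cebpb had r of -0.81, -0.70 and -0.70 on the deviations. Over all litters these were 0.12, -0.48 and -0.13, and without those 2 litters 0.23, -0.56 and -0.14.

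**Figure D4:**
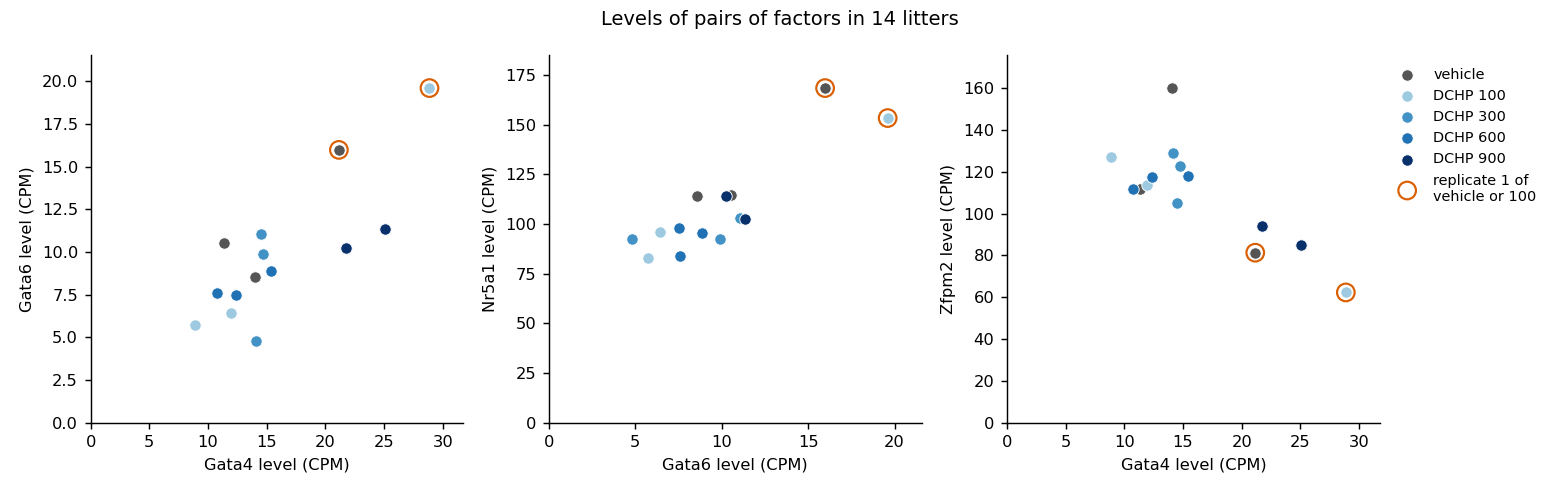
Levels (CPM, both axes from 0) of 3 pairs of factors in the 14 litters, shaded by dose, with rings around litter 1 of vehicle and of 100 mg/kg/day. The ringed litters lie at the high end of Gata4, Gata6 and Nr5a1 and at the low end of Zfpm2, and the 900 mg/kg/day litters lie near them for Gata4 and Zfpm2.

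The genes whose levels ran most like each factor were sought among 9789 named genes with a mean of at least 20 counts, as Pearson's r over the 14 litters. These are descriptions, since litters of a group share their dose and each set holds the highest of many values. Nearest to Nr5a1 were Grhpr, Fdxr and Uqcc3, with r between 0.93 and 0.94, Fdxr being the reductase that passes electrons to Fdx1. Nearest to Cebpb were Idh1, Flvcr2 and Hsd3b1, with r of 0.95, 0.94 and 0.94, Idh1 being a cytosolic source of NADPH. Nearest to Gata4 were Frem1, Tead1 and Zc4h2 at 0.96, and nearest to Gata6 were Gpr182, Zfp597 and Atp5mc3 at 0.94 to 0.95. Nearest to Zfpm2 were Ubqln2, Plxnc1 and Slf2 at 0.97 to 0.98. Nr5a2 had the weakest matches, Dock3, Ap2a1 and Spindoc, at 0.84 to 0.89. Nr0b1 had too few counts for this search.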

How the data were processed

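TempO-Seq libraries of 14 litters were analysed. The submitters' processing notes name STAR 2.7.8a, Partek, DESeq2 and build rn7, without saying which made which table. The estimated counts per gene are as deposited. Of them 83.6% are whole to a tolerance of 1e-09, and they were rounded before testing. A second deposited table of estimated counts multiplies a few genes by a factor for attenuation and served as an alternative. The deposited log2 values are log2 CPM of that table and were not tested.

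Genes were filtered by filterByExpr, which kept 12719 of 18174 and left out 5455. TMM scaling and 1 robust quasi-likelihood fit (edgeR 4.0.16, R 4.3.3) covered all 14 libraries, with 9 residual degrees of freedom. Contrasts were each dose against vehicle and against the dose below, and a separate fit gave the slope per 100 mg/kg/day. Tests were two-sided. Ratios and correlations used log2(CPM + 1) and 100000 permutations (SciPy 1.17.1). The edgeR steps were tested on simulated data. Alternatives were other scalings and filters, DESeq2 1.42.0, fits of the compared groups alone, and left-out litters.

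The members, gene lists, tests and alternatives were chosen with earlier results of these data known. All members are described. Of the lists of targets, relatives, other factors and coregulators, the genes that passed and up to 4 with the smallest trend p are named, and for each member with a mean of at least 20 counts the 3 genes most like it. Of the genes this rule names, 1 is not reported here. Litters carry numbers by sample order, for naming only, and each counts as 1 unit. Nothing further says how libraries were batched, so any batch cannot be told apart from the groups.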

Additional observations from a re-analysis of the deposited data

How the results depend on the processing

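Depth was 5558873 to 11272861 estimated counts and limits Nr0b1 most. With 2 litters at 900 mg/kg/day the precision is low, and an interval that holds 0 does not show an absence of change. No paired analysis was possible because litters carry no replicate number in the labels. Of 758 values of the 7 factors recomputed under an alternative, 711 kept their direction and side of the threshold, 13 gained a call, 4 lost one and 30 turned their sign. Of 476 recomputed values of the called falls of 8 targets, 390 still passed and 86 did not. Among factors, the number called was 0 at 900 mg/kg/day in the fit of the compared groups alone, against 1. That fit called 3 factors (Gata4, Zfpm2 and Cebpb) between 900 and 600 mg/kg/day, a step at which up to 2143 genes passed over the alternatives. DESeq2 called 1 at 600 mg/kg/day, where it called 59 genes in all, and 1 over dose, and the fit with no filter 1 over dose. Without vehicle litter 1 and 100 mg/kg/day litter 1 (the libraries that stood apart) the counts were 1, 1 and 3 at 300, 600 and 900 mg/kg/day, 2 between 900 and 600 mg/kg/day and 3 over dose. Of all tested genes 0.309%, 0.523% and 16.7% passed there at these doses, 14.0% between 900 and 600 mg/kg/day and 11.8% over dose. Leaving out each litter in turn gave 0 to 1 at 600 mg/kg/day, at 900 mg/kg/day and in the trend, 1 to 6 correlated pairs, and a slope of the Inha ratio of -0.10 to -0.072. The correlated pairs numbered 0 without those libraries and 10 on deviations from group means, against 6. The 10 rest on permutations across groups, whose p is too small. Over all these alternatives, left-out litters included, the genes called at 900 mg/kg/day numbered 0 to 2102 against 32, between 900 and 600 mg/kg/day 0 to 2143 against 0, and over dose 30 to 1494 against 54. They numbered 0 to 39 at 300 mg/kg/day against 6 and 6 to 66 at 600 mg/kg/day against 28. Without those libraries the log2 change of Gata4 at 100, 300 and 600 mg/kg/day turned from 0.089, -0.10 and -0.27 to -0.27, 0.19 and 0.020. That of Gata6 at 900 mg/kg/day turned from -0.12 to 0.145, and its slope from -0.026 to 0.033. For Zfpm2 at 300 mg/kg/day the change turned from 0.016 to -0.19. With no filter it turned to -0.020 for Nr5a2 and -0.010 for Zfpm2 at 300 mg/kg/day. None of these turned values passed the test, and the cause was not tested. Leaving out each litter in turn gave ranges across 0 at 100 mg/kg/day for Nr0b1 (-0.62 to 0.063), Gata4 (-0.57 to 0.39), Gata6 (-0.94 to 0.14) and Zfpm2 (-0.43 to 0.066). The same held at 300 mg/kg/day for Gata4 (-0.28 to 0.19), Nr5a2 (-0.046 to 0.090) and Zfpm2 (-0.19 to 0.30), and at 600 mg/kg/day for Gata4 (-0.45 to 0.019) and Zfpm2 (-0.23 to 0.26). It held at 900 mg/kg/day for Gata6 (-0.30 to 0.18) and for the slope of Nr5a2 (-0.013 to 0.012).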
